A study of Mus musculus with 4 samples.

Results

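The IL-6 and IL-12 cytokine family was followed through 10 genes, taken by gene symbol from a table of read counts for 38087 mouse genes. They encode 5 chains of the IL-12 side (Il12a, Il12b, Il23a, Il27 and Ebi3), 3 ligands of the IL-6 side (Il6, Lif and Osm) and 2 receptor chains (Il6ra and Il6st). All 10 symbols were found, once each. The libraries were 2 labelled WT, from wild-type C57BL/6 mice, and 2 labelled Becn1-M-KO (here KO), from C57BL/6 mice labelled Becn1 KO. Every mouse was at postnatal week 20 and every sample was labelled cervical lymph node; no treatment was listed. By the series' title, the KO tissue was B cell lymphoma of mice without Beclin-1 in myeloid cells, and the WT tissue was control node. The labels name no Cre driver, do not say plainly whether the WT mice bore tumours, and are silent on whether a group's samples are from different animals. Genotype and tumour cannot be told apart in this design, and each p-value reflects the spread among these 4 samples alone, part of which may be technical.

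These cytokines are built from a small set of shared chains. A helical chain such as p35 (Il12a), p19 (Il23a) or p28 (Il27) pairs with a receptor-like chain, p40 (Il12b) or EBI3 (Ebi3): p35 with p40 makes IL-12, p19 with p40 makes IL-23, and p28 with EBI3 makes IL-27. IL-6, LIF and oncostatin M act alone as helical ligands, and their receptors signal through gp130 (Il6st), as does the IL-27 receptor. Dendritic cells and macrophages are the usual sources of IL-12, IL-23 and IL-27 in lymph nodes. IL-12 drives interferon-gamma production by T and NK cells, IL-23 maintains type 17 responses, and IL-6 acts on B cells, plasma cells and T cells.

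Total depth was 15604247 to 20067004 reads per library. A count of 0 allows up to 3 reads, which is 0.149 to 0.192 CPM (reads scaled for library depth) taken on the library total and covers counting error only. The 2 WT libraries were unlike each other: 6 B cell markers summed to 10.4 CPM in WT replicate 1 but to 1169 in WT replicate 2, beside 1795 and 1689 in KO. The 8 T cell markers summed to 9.40 and 530 CPM in WT against 392 and 372 in KO. The defining markers of a lymph node were therefore close to absent from WT replicate 1. Both WT libraries were rich in 10 epithelial and salivary markers (21700 and 14310 CPM, against 32.9 and 100.1 in KO). Xist reads were 2088 and 5314 in WT and 3 and 34 in KO, and reads of the Y-linked Eif2s3y were 1 and 6 in WT and 767 and 1083 in KO, so sex went with genotype as well. The targeted gene Becn1 (chromosome 11, 101285952 to 101302286) measured 54.7 and 63.3 CPM in WT against 49.4 and 53.2 in KO (−0.20 ± 0.21 SE on the log2 scale, adjusted p = 0.557, but −0.30 with adjusted p = 0.0316 without WT replicate 1). It overlaps Cntd1 on the opposite strand. Because the deletion is labelled as one of myeloid cells only and reads are given per whole gene, the tissue level does not check the genotype.

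**Figure D1:**
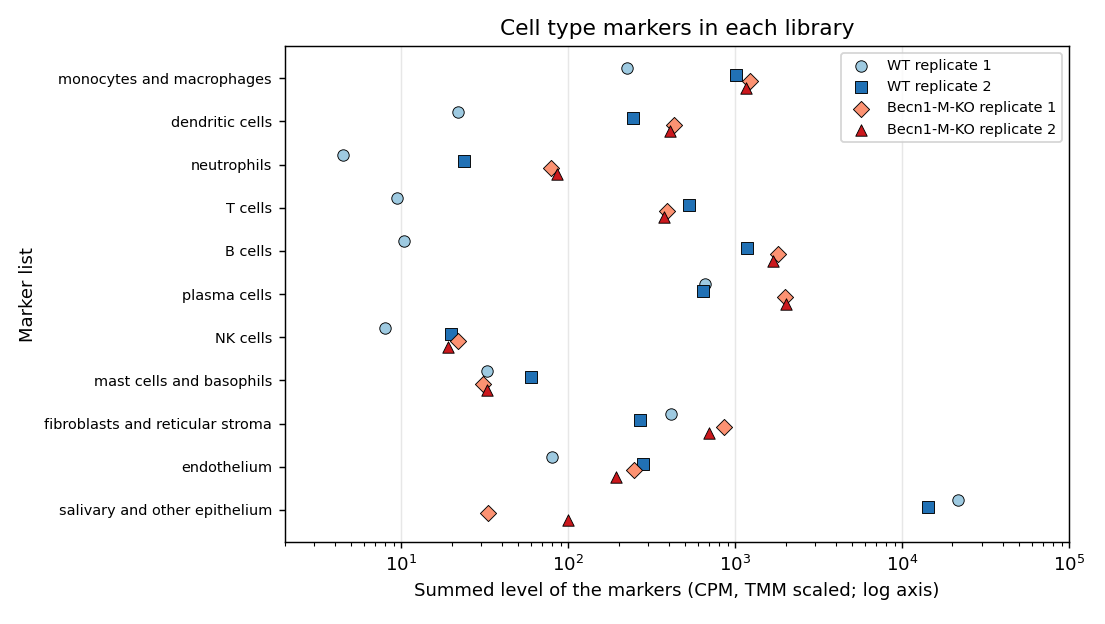
Summed level of each list of cell type markers (CPM after TMM scaling, log axis) in the 4 libraries, 1 point per library. WT replicate 1 is low for B cell, T cell and dendritic cell markers, and both WT libraries are high for the epithelial list (21700 and 14310 CPM).

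Levels below are CPM after TMM scaling, which corrects for a few genes taking a large share of a library. The test was edgeR's quasi-likelihood test over 20695 genes, with p-values adjusted by Benjamini-Hochberg over all of them. Of the 10 family genes, 9 passed the filter on low counts and 1, Il23a, did not. The filter asked for about 10 reads in 2 libraries. Il6, Lif, Il12b, Il27, Il12a and Osm did not reach this in both WT libraries, so they passed through their KO counts. Only Il27 passed the threshold of 0.05, as a rise; 1.04% of all genes tested were called higher in KO. The median log2 fold change of the 9 genes was 1.98, beside 0.010 over all genes tested, and 8 of the 9 values were positive. These figures lean on genes that the filter kept for their KO counts. Without the filter 8 of 10 values were positive, with a median of 1.81 beside 0.026 over all genes. In 7 of the 9 both KO libraries stood above both WT libraries, as they did in 34.3% of all genes tested, and in 0 of the 9 both stood below, as in 33.3% of all genes. An unadjusted p under 0.05 with a positive value was found for 5 of the 9 (Il27, Il12b, Lif, Il6 and Ebi3), against 10.5% of all genes. In the same libraries DESeq2 called 4 of the 9 higher (Il12b, Il27, Ebi3 and Lif), against 5.67% of all genes. Il27 alone was called with DESeq2 size factors (0.971% of all genes called higher), a stricter count filter (1.15%) and limma-voom (1.21%). Il27 and Il12b were called without the count filter (1.75%) and with a crossed replicate pairing chosen after seeing the data (0.976%).

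**Figure D2:**
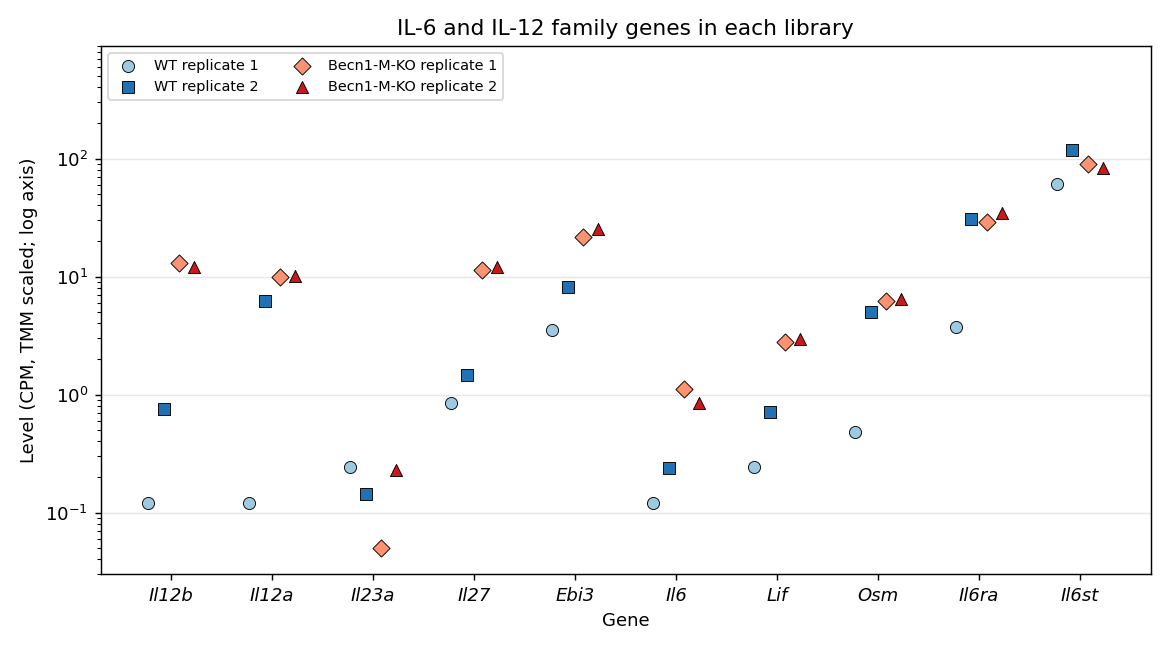
Level of each family gene (CPM after TMM scaling, log axis) in the 4 libraries, 1 point per library. The KO libraries sit together; WT replicate 2 is near them for Il12a, Osm, Il6ra and Il6st, and far below them for Il12b and Il27 (0.762 and 1.47 CPM, against 12.1 to 13.0 and 11.4 to 12.0 in KO).

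Among the IL-12 chains, the p40 gene had the largest fold change of the family. Il12b (chromosome 11, 44400063 to 44414033, mm10) counted 1 and 16 reads in WT against 259 and 315 in KO, or 0.120 and 0.762 CPM against 13.0 and 12.1 CPM. The KO values were close to each other and lay far above both WT values, which differed from each other. Its log2 fold change was 4.60 (SE 0.72), with an adjusted p of 0.0610 that lies above the threshold. Il12b was called without the count filter (adjusted p = 0.0238) and by DESeq2 (adjusted p = 8.6e-08). Against WT replicate 2 alone it was 4.04 (SE 0.27, adjusted p = 1.9e-07); that comparison leaves 1 WT library, so its p holds nothing of the spread within WT.

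For Il12a, which encodes p35, the value depended on which WT library was used. It (chromosome 3, 68690644 to 68698547) counted 1 and 130 reads in WT against 199 and 261 in KO, or 0.120 and 6.19 CPM against 9.99 and 10.03 CPM. WT replicate 2 thus lay below both KO libraries but far nearer to them than WT replicate 1, which alone held almost no reads. On the log2 scale Il12a differed by 1.58 (SE 1.32, adjusted p = 0.478), by 0.70 (SE 0.18) against WT replicate 2 alone and by 6.28 (SE 0.54) against WT replicate 1 alone.

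Il23a, the p19 chain that joins p40 to form IL-23, was at the edge of detection. Il23a (chromosome 10, 128296140 to 128298084) counted 2 and 3 reads in WT against 1 and 6 in KO. The 95% counting intervals were 0.24 to 7.22 and 0.62 to 8.77 reads in WT and 0.03 to 5.57 and 2.20 to 13.1 reads in KO, so the libraries overlap and no difference was detectable at this depth. In 3 of the 4 libraries its count was at or under the floor of 3 reads.

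Il27, the p28 chain of IL-27, was the family gene that rose by the test of all 4 libraries. Il27 (chromosome 7, 126589010 to 126594941) counted 7 and 31 reads in WT against 228 and 311 in KO, or 0.844 and 1.47 CPM against 11.4 and 12.0 CPM. The groups did not overlap, and on this scale the WT libraries also lay close to each other. That closeness depended on the TMM factors (0.514 in WT replicate 1 and 1.18 in WT replicate 2). On library totals Il27 had 0.434 and 1.73 CPM in WT against 14.6 and 15.5 in KO. It rose by 3.28 on the log2 scale (SE 0.39, adjusted p = 0.0475). The adjusted p was 0.0988 with library totals as the scale and 0.0720 with a replicate block. Leaving out KO replicate 1 or KO replicate 2 gave 0 calls by edgeR over all genes in either direction, with 732 and 743 genes higher and 1318 and 1342 lower at an unadjusted p under 0.05. Il27 then had adjusted p-values of 0.370 and 0.369, at log2 fold changes of 3.34 and 3.28. Il27 overlaps Apobr on the opposite strand by 103 bases; Apobr counted 44 and 120 reads in WT against 403 and 500 in KO.

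Ebi3, the partner of p28, had more reads per exonic kilobase than the other 7 ligand chains among the 10 genes in each library. Ebi3 (chromosome 17, 55952623 to 55957021) counted 29 and 172 reads in WT against 431 and 656 in KO, or 3.50 and 8.19 CPM against 21.6 and 25.2 CPM. Both KO libraries lay above both WT libraries. Its value of 1.98 on the log2 scale (SE 0.48) had an adjusted p of 0.104, and DESeq2 called it higher (adjusted p = 0.0084). Against WT replicate 2 alone it was 1.52 (SE 0.16). A long noncoding gene on the opposite strand, AC154235.1, overlaps 2251 bases of Ebi3 and had 0.690 and 0.727 reads per Ebi3 read in WT and 0.520 and 0.514 in KO. Whether the counting used strand is not given in the sources used here, so part of these reads cannot be assigned to one gene or the other.

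The balance between partner chains was read as a ratio of reads per exonic kilobase, using exon lengths from GENCODE M21. Il12b to Il12a was 0.106 in WT replicate 2 (95% counting interval 0.0591 to 0.179), 1.13 in KO replicate 1 (0.932 to 1.36) and 1.04 in KO replicate 2 (0.883 to 1.23). In WT replicate 1 it rested on 1 read of each gene and could not be read (0.011 to 67.9). The p40 transcript was thus roughly as abundant as p35 in KO and far below it in WT replicate 2, on this length scale. Per kilobase of the whole gene, the length the authors list, the ratio was 0.0696 in WT replicate 2 and 0.736 and 0.683 in KO. Il27 to Ebi3 was 0.273 (0.101 to 0.636) and 0.204 (0.134 to 0.300) in WT and 0.598 (0.507 to 0.704) and 0.536 (0.467 to 0.614) in KO. The KO intervals lay above that of WT replicate 2, while the interval of WT replicate 1 overlapped both of them. With 2 libraries against 2 an exact permutation test cannot go below p = 0.333 (two-sided), so no test over samples is given.

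**Figure D3:**
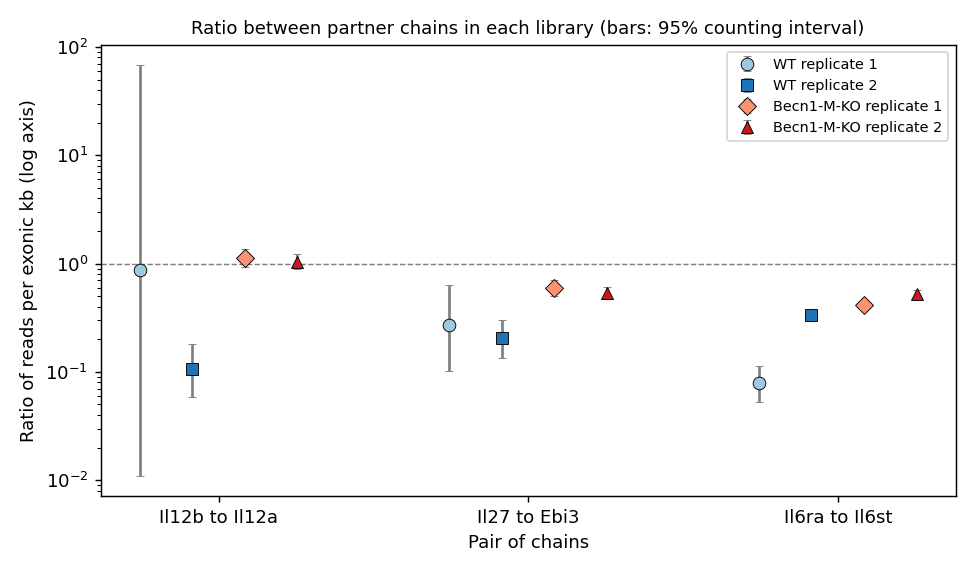
Ratio of reads per exonic kilobase between partner chains (log axis), 1 point per library with its 95% counting interval; the dashed line marks equal levels. The Il12b to Il12a ratio is 0.106 in WT replicate 2 and 1.13 and 1.04 in KO; in WT replicate 1 it rests on 2 reads.

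Il6, the founding ligand of the gp130 side, had few reads in every library. It (chromosome 5, 30013161 to 30019968) had 1 and 5 reads in WT and 22 in each KO library, or 0.120 and 0.238 CPM against 1.10 and 0.846 CPM. Both KO levels lay above both WT levels, but the counts are low: the 95% counting intervals reached up to 0.671 and 0.555 CPM in WT and began at 0.692 and 0.530 CPM in KO, so that of KO replicate 2 overlaps both WT intervals. On the log2 scale Il6 differed by 2.26 (SE 0.51), and its adjusted p of 0.0960 lies above the threshold.

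Lif, a ligand of the LIF receptor and gp130, also had few reads in WT. It (chromosome 11, 4257557 to 4272514) counted 2 and 15 reads in WT against 56 and 77 in KO, or 0.241 and 0.714 CPM against 2.81 and 2.96 CPM. Both KO libraries lay above both WT libraries. The difference of 2.44 on the log2 scale (SE 0.56) had an adjusted p of 0.0958, and DESeq2 called it higher (adjusted p = 0.0159). Against WT replicate 2 alone the value was 2.01 (SE 0.38).

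Osm, which encodes oncostatin M and neighbours Lif on chromosome 11 (4236420 to 4241026), followed the pattern of Il12a instead. It counted 4 and 105 reads in WT against 124 and 167 in KO, or 0.482 and 5.0 CPM against 6.22 and 6.42 CPM. WT replicate 2 was close to KO and WT replicate 1 was low. Its log2 difference was 1.13 (SE 1.0, adjusted p = 0.500), and against WT replicate 2 alone it was 0.34 (SE 0.22, adjusted p = 0.228).

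The 250 bases before the RefSeq start (GRCm38.p6) are shown for 3 ligand genes whose KO levels both lay above WT: Il6 and Lif, which of the 7 family genes with a promoter entry alone held a match to a motif searched, and Il12b, which had the largest fold change. Capitals mark matches, on either strand, to 4 motifs: GGG, 2 of any base and TTTCC for NF-kB, TGANTCA for AP-1, TTGCNNAA for C/EBP, and GAAA, 2 of any base and GAAA for interferon-regulated factors.
Il6, chr5:30012864-30013113, plus strand: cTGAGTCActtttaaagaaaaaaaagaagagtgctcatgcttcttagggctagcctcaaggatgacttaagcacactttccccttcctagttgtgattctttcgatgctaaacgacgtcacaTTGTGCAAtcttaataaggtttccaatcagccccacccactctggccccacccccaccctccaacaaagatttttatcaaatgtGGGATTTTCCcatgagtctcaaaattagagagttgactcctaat
Lif, chr11:4257318-4257567, plus strand: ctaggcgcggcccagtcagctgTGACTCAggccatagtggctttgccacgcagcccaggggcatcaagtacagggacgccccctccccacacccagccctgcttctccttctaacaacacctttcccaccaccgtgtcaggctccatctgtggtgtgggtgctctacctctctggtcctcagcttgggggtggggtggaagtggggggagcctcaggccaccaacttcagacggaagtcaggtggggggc
Il12b, chr11:44399813-44400062, plus strand: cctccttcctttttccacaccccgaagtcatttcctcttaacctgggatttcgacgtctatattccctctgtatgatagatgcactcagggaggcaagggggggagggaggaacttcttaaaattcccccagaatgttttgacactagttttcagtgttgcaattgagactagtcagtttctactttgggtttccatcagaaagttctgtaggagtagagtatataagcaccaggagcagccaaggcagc
The Il6 window held 1 match each to the NF-kB, C/EBP and AP-1 motifs, none overlapping, beginning 44, 128 and 249 bases before the start. The Lif window held 1 AP-1 match, 228 bases before the start, and the Il12b window held none of the 4. Of 32851 promoter windows of this length in the table, 1.41% held the NF-kB motif, 6.75% the AP-1 motif, 9.56% the C/EBP motif and 2.98% the interferon motif. Promoters were matched for 7 of the 10 genes; Il6ra, Il6st, Il12a and Ebi3 held no match, and Il23a, Il27 and Osm had no entry. A match describes letters in a window and is not evidence of binding.

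For both receptor chains the groups overlapped. Il6ra, the binding chain of the IL-6 receptor (chromosome 3, 89869324 to 89913162), counted 31 and 643 reads in WT against 580 and 891 in KO, or 3.74 and 30.6 CPM against 29.1 and 34.3 CPM. WT replicate 2 lay between the KO libraries, and only WT replicate 1 was low. For Il6ra the difference was 0.87 on the log2 scale (SE 0.99, adjusted p = 0.596) and 0.058 (SE 0.13) against WT replicate 2 alone.

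Il6st, the shared signalling chain gp130 (chromosome 13, 112475008 to 112506860), counted 508 and 2489 reads in WT against 1796 and 2177 in KO, or 61.2 and 118 CPM against 90.2 and 83.7 CPM. The KO libraries lay between the 2 WT libraries. Its log2 difference was −0.049 (SE 0.40, adjusted p = 0.946), with opposite signs against WT replicate 2 alone (−0.44, SE 0.11, adjusted p = 0.0050) and against WT replicate 1 alone (0.49, SE 0.11, adjusted p = 0.0020), and its sign also turned with library totals as the scale (0.39). Il6ra to Il6st, per exonic kilobase, was 0.0784 and 0.332 in WT and 0.415 and 0.526 in KO.

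**Figure D4:**
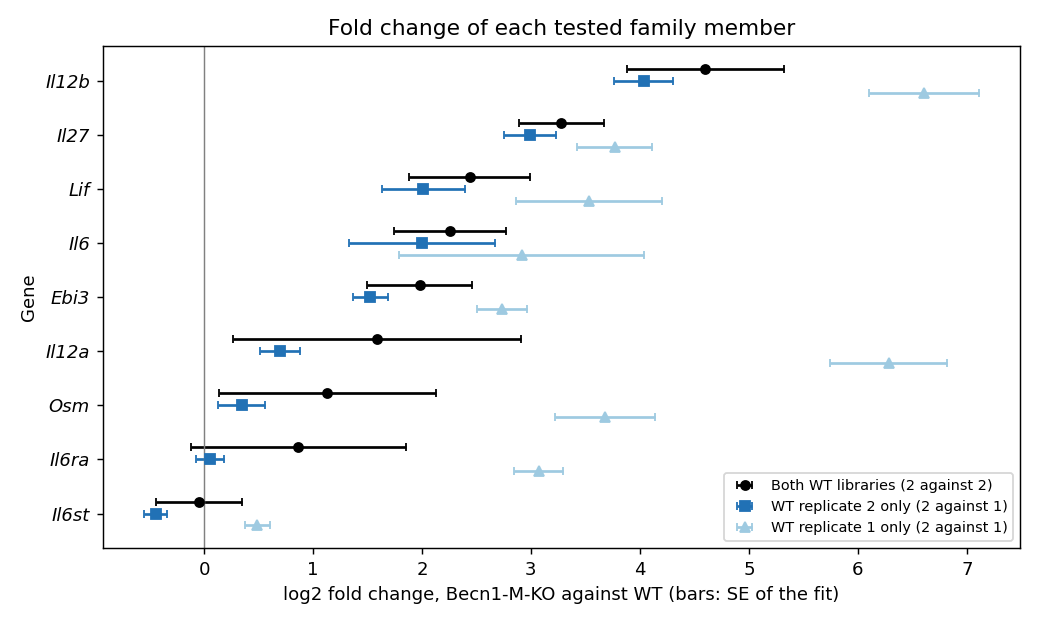
Log2 fold change of each tested family gene in KO, with the SE of the fit, against both WT libraries (black) and against each WT library alone (blue). For Il12a, Osm and Il6ra the value depends on which WT library is used (0.70 and 6.28 for Il12a), while Il27 stays between 2.99 and 3.77.

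With WT replicate 1 left out, 6 of the 9 tested genes passed as higher (Il12b, Il27, Lif, Il6, Ebi3 and Il12a) and Il6st passed as lower, where 20.9% of all genes passed as higher and 22.8% as lower. With WT replicate 2 left out, all 9 passed as higher, where 32.3% of all genes did. Ordered by level per exonic kilobase, the KO libraries ran from Ebi3 (mean 20.3 CPM per kilobase) through Il27 (11.5), Il6st (7.83), Il12b (6.38), Il12a (5.89), Il6ra (3.67), Osm (2.78), Lif (0.663) and Il6 (0.402) to Il23a (0.0625). No neighbours in that order overlapped between the 2 KO libraries, although 2 values per gene give little measure of spread. In WT replicate 2 the order was Il6st (10.7), Ebi3 (7.09), Il12a (3.64), Il6ra (3.54), Osm (2.20), Il27 (1.45), Il12b (0.387), Lif (0.164), Il6 (0.098) and Il23a (0.0635). Il27 and Il12b thus stood above Il6ra and Osm in KO and below them in WT replicate 2. In WT replicate 1 the order began with Il6st (5.52), Ebi3 (3.03), Il27 (0.826), Il6ra (0.432) and Osm (0.212), so Il27 stood above Il6ra and Osm there too, and the 5 remaining genes had 1 or 2 reads each. Per kilobase of the whole gene Il12b stood below Osm and Il12a in KO (0.899, 1.37 and 1.27).

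Markers of the usual source cells were given beside the family. The 11 monocyte and macrophage markers summed to 224 and 1006 CPM in WT and 1227 and 1155 in KO. Fcgr1 rose, 8 of the 11 values were positive, and the 3 negative ones were Lyz2, Marco and Cd163. In each of those 8 both KO libraries lay above both WT libraries, as in 34.3% of all genes tested. Cd68, for example, had 9.64 and 27.5 CPM in WT against 154 and 155 in KO. DESeq2 called 7 higher and 1 lower (Cd163), where it called 5.67% and 10.6% of all genes. The 9 dendritic cell markers summed to 21.8 and 243 CPM in WT and 427 and 405 in KO. Itgax rose, 7 of the 9 values were positive, and Cd209a and Siglech had negative values. None of either list was at 0 in any library, and in whole tissue, fewer cells of a type and less RNA per cell cannot be told apart. The sums rest on few genes: Lyz2 and Marco held 11896 and 3541 of the 21138 macrophage marker reads in WT replicate 2, and Itgax 4787 of the 8509 dendritic marker reads in KO replicate 1. Ratios are therefore also given without these 3 genes, a choice made after seeing the data.

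Set against the macrophage list, Il12b had 0.538 and 0.757 reads per 1000 marker reads in WT and 10.6 and 10.5 in KO, and without Lyz2 and Marco 0.735 and 2.81 in WT and 12.2 in each KO library. Per 1000 dendritic marker reads Il12b had 5.53 and 3.14 in WT and 30.4 and 29.9 in KO, and without Itgax 9.09 and 3.40 against 69.6 and 65.5. Il12b was thus higher in KO by all 4 measures, although WT replicate 1 holds 1 read of it. For Il12a the order depended on the markers. It had 0.538 and 6.15 per 1000 macrophage marker reads in WT and 8.14 and 8.69 in KO, but without Lyz2 and Marco WT replicate 2 (22.8) lay above both KO libraries (9.38 and 10.1). Per 1000 dendritic marker reads Il12a had 25.5 in WT replicate 2 and 23.4 and 24.8 in KO, and without Itgax 27.6 against 53.5 and 54.3. Il27 had 3.77 and 1.47 per 1000 macrophage marker reads in WT and 9.33 and 10.4 in KO, and without Lyz2 and Marco 5.15 and 5.44 against 10.7 and 12.0. Per 1000 dendritic marker reads Il27 had 38.7 and 6.08 in WT and 26.8 and 29.5 in KO, so WT replicate 1, from 7 reads of Il27 and 181 marker reads, lay above both KO libraries. Without Itgax Il27 had 63.6 and 6.59 in WT against 61.3 and 64.7 in KO, so WT replicate 1 lay between the KO libraries. For Ebi3 the same measure gave 160 and 33.8 in WT and 50.7 and 62.2 in KO, and against the macrophage list without Lyz2 and Marco 21.3 and 30.2 against 20.3 and 25.4. Ebi3 was therefore not above both WT libraries by either of these 2 measures.

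Neutrophil markers summed to 4.46 and 23.8 CPM in WT and 78.9 and 85.6 in KO, with S100a8, S100a9, Ly6g, Retnlg and Camp at 0 in WT replicate 1; their part in the family's levels was not tested. Plasma cell markers summed to 660 and 645 CPM in WT against 1981 and 2022 in KO. These sums also rest on few genes. Xbp1, the only 1 of the 6 with a negative value, had 623 and 450 CPM in WT and 379 and 351 in KO. Igj had 13.5 and 133 CPM in WT and 1264 and 1348 in KO. Fibroblast markers summed to 413 and 270.5 CPM in WT against 851 and 693 in KO. The other lists overlapped between the groups: NK cells spanned 7.95 to 21.8 CPM, mast cells 30.8 to 60.0 and endothelium 80.1 to 281.

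The rest of the pathway was followed in 8 lists of 66 different genes, of which 62 were tested. Of these, 6 rose and 3 fell, where 1.04% and 2.18% of all genes did; 49 of 62 values were positive, and the median was 1.29 beside 0.010 over all genes. With WT replicate 1 left out, 45 of the 62 values were positive and the median was 0.814, beside 0.004 over all genes. With library totals as the scale or with the replicate block none passed, as was so for all genes tested. DESeq2 called 20 higher and 5 lower, where it called 5.67% and 10.6% of all genes. Cebpb and Timp1 lost their calls with DESeq2 size factors, and Timp1 and Ctf1 lost theirs with limma-voom.

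Other receptors of the family split. Of 9, all tested, Il12rb2 rose and Lifr fell, where 1.04% and 2.18% of all genes did. Il12rb2, the signalling chain of the IL-12 receptor, had 2.89 and 4.24 CPM in WT against 21.5 and 20.7 in KO (2.55 ± 0.30 SE on the log2 scale, adjusted p = 0.0475). Its partner Il12rb1, which also serves IL-23, had 0.844 and 3.81 CPM in WT against 44.3 and 37.1 in KO (4.05 ± 0.75 SE on the log2 scale, adjusted p = 0.0726). Lifr, the LIF receptor, had 47.0 and 44.1 CPM in WT against 12.0 and 10.3 in KO, and it fell by 2.03 on the log2 scale (SE 0.21, adjusted p = 0.0456).

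Of 5 other ligand chains, mostly of the IL-6 side, 4 were tested, Ctf1 fell and none rose, where 2.18% and 1.04% of all genes did. Ctf1, which encodes cardiotrophin-1, had 71 and 80 reads in WT and 2 in each KO library (−6.02 ± 0.71 SE on the log2 scale, adjusted p = 0.0475, and 0.0567 by limma-voom), and it overlaps Ctf2. Il11 had 12 and 15 reads in WT and 2 in each KO library (adjusted p = 0.0743). Clcf1, a ligand of the ciliary neurotrophic factor receptor, counted 56 and 1249 reads in WT against 1038 and 1240 in KO (0.58 ± 1.02 SE on the log2 scale, adjusted p = 0.735), and its sign turned to −0.25 against WT replicate 2 alone. Epithelial markers were high in both WT libraries and low in KO beside Ctf1, Il11 and Lifr; their part was not tested.

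No kinase or STAT gene of 5 passed by edgeR, with 3 of them at an unadjusted p under 0.05, and DESeq2 called 1 (Jak2). All 5 values were positive (median 1.06). Stat3, the main transcription factor downstream of gp130, had 111 and 106 CPM in WT against 216 and 196 in KO (0.92 ± 0.25 SE on the log2 scale, adjusted p = 0.120), and overlaps Stat5a. Jak2 had a value of 1.5 (SE 0.39, adjusted p = 0.115). Tyk2, a kinase of the IL-12 and IL-23 receptors, had 34.0 and 52.0 CPM in WT against 86.7 and 93.2 in KO (1.06 ± 0.30 SE on the log2 scale, adjusted p = 0.130). An antisense gene, 1700084C06Rik, shares 23278 bases with Tyk2. Its count exceeded that of Tyk2 in every library, from 321 beside 282 (WT replicate 1) to 2660 beside 2424 (KO replicate 2). The counts alone cannot assign shared reads to either gene.

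Among 7 feedback inhibitors, Socs2 fell and none rose, where 2.18% and 1.04% of all genes did. Socs2 had 44.8 and 43.2 CPM in WT against 12.5 and 11.4 in KO (−1.88 ± 0.20 SE on the log2 scale, adjusted p = 0.0456). Socs3, the STAT3-induced inhibitor of gp130, had 4.94 and 16.7 CPM in WT against 112 and 101 in KO. The value of 3.28 (SE 0.67) was not called (adjusted p = 0.0820). Cish had a value of −2.02 (SE 0.65, adjusted p = 0.157) and overlaps antisense genes.

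Of 13 known gp130 and STAT3 targets, 4 rose (Saa3, Lcn2, Timp1 and Cebpb) and none fell, where 1.04% and 2.18% of all genes did. Their median was 2.11. With DESeq2 size factors only Saa3 and Lcn2 were called, where 0.971% of all genes rose. Saa3, an acute phase apolipoprotein, had 1.08 and 2.67 CPM in WT against 286 and 324 in KO (7.30 ± 0.62 SE on the log2 scale, adjusted p = 0.0435). Lcn2, a siderophore-binding protein, had 4.10 and 2.52 CPM in WT against 92.5 and 95.3 in KO (4.85 ± 0.35 SE on the log2 scale, adjusted p = 0.0435). Cebpb, a transcription factor that also acts on the Il6 gene, had 14.3 and 10.3 CPM in WT against 52.8 and 53.1 in KO (2.11 ± 0.26 SE on the log2 scale, adjusted p = 0.0482). Timp1 and Cebpb overlap Syn1 and Tmem189 on the opposite strand, and Saa3 and Lcn2 are also induced by other inflammatory signals.

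In the IL-12 and type 1 arm, 2 of 10 rose (Ifng and Il12rb2), where 1.04% of all genes did. All 10 values were positive, with a median of 2.49. Ifng, which encodes interferon-gamma, counted 1 and 8 reads in WT against 199 and 248 in KO, or 0.120 and 0.381 CPM against 9.99 and 9.54 CPM, a rise of 5.06 ± 0.53 SE on the log2 scale (adjusted p = 0.0456). Tbx21, the transcription factor T-bet, had 1.33 and 4.86 CPM in WT against 34.2 and 34.3 in KO (3.41 ± 0.66 SE on the log2 scale, adjusted p = 0.0774). The 8 T cell markers summed to 9.40 and 530 CPM in WT against 392 and 372 in KO, and their part in these values was not tested.

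In the IL-23 and type 17 arm, 8 of 11 genes were tested and none passed in the main edgeR fit. An unadjusted p under 0.05 was found for 3. DESeq2, and edgeR without the count filter, each called 1 (Il21). The median was 1.55, and 7 of 8 values were positive. Il17a counted 0 and 1 reads in WT against 2 and 4 in KO, Il17f 0 and 1 against 0 and 2, and Il22 0 and 2 against 1 and 1, too few to test. Il21 counted 1 and 5 reads in WT against 54 and 38 in KO (3.35 ± 0.62 SE on the log2 scale, adjusted p = 0.0726) and overlaps Gm12534, and Rora had a value of −0.94 (SE 0.20, adjusted p = 0.0846). Ccl20, a chemokine of type 17 sites, counted 0 and 4 reads in WT against 14 and 16 in KO (adjusted p = 0.183).

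Of 11 transcription factors that act on the cytokine genes, Cebpb rose and none fell, where 1.04% and 2.18% of all genes did. The list had 10 positive values and a median of 1.12. Irf1, which acts on Il12a, Il12b and Il27, had 44.2 and 98.0 CPM in WT against 442 and 413 in KO (2.59 ± 0.51 SE on the log2 scale, adjusted p = 0.0782), and overlaps Gm17334. Nfkbiz, a cofactor of NF-kB at Il6, had 23.6 and 26.9 CPM in WT against 52.0 and 54.6 in KO (1.07 ± 0.20 SE on the log2 scale, adjusted p = 0.0724).

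**Figure D5:**
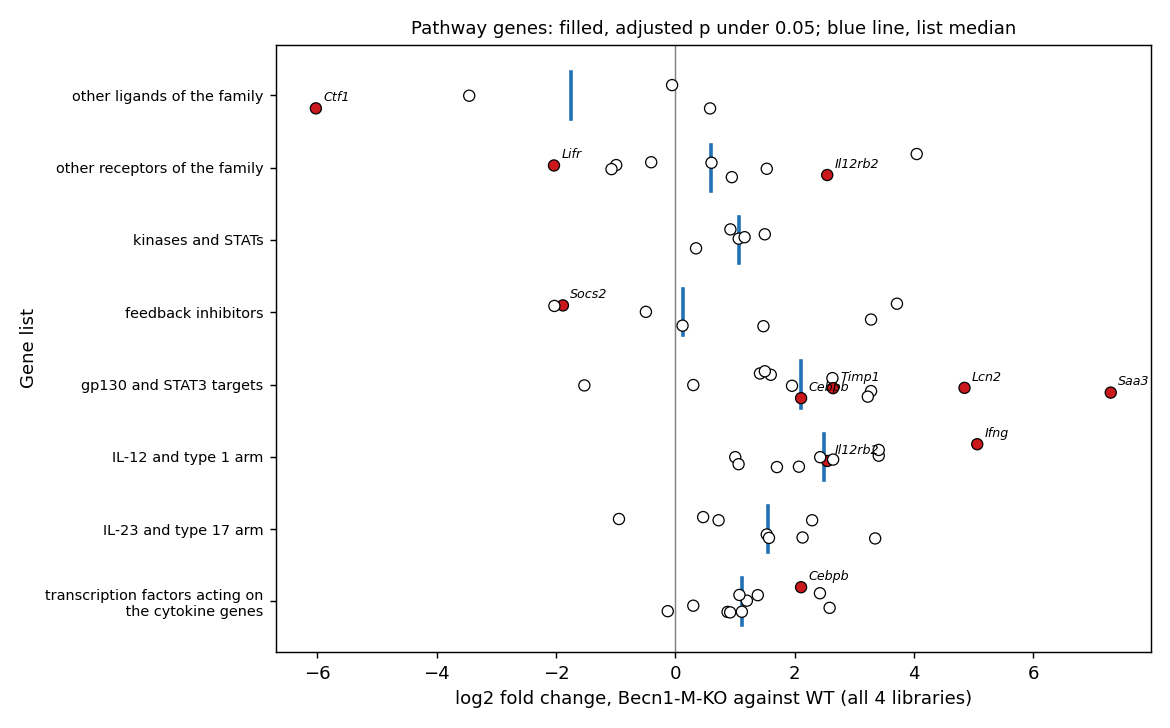
Log2 fold change in KO against both WT libraries for the tested genes of 8 pathway lists, 1 point per gene; filled points passed an adjusted p of 0.05 and the blue line is the list's median. The type 1 arm lies wholly above 0 (median 2.49), while Ctf1 lies far below it.

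Patterns over the 4 libraries were compared by distance between centred log2 CPM values. Of the 20695 genes, only protein-coding ones were kept, without predicted genes, clones, pseudogenes, and immunoglobulin and T cell receptor segments. Among those kept, the genes most like Il27 were Dpep2 (0.194), Gbgt1 (0.197) and Irgm2 (0.227). Irgm2, an interferon-induced GTPase that overlaps Igtp, had 50.6 and 74.3 CPM in WT and 564 and 517 in KO. For Il6 they were Nlrp14 (0.0971), Btbd16 (0.101) and Spred3 (0.148), and Btbd16 lies across Fgfr2. With 4 libraries many genes share a pattern, and the likeness is a description.

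The authors' deposited table of comparisons lists genes at an unadjusted p under 0.05, with 6.52% of all genes listed as up. It lists 4 of the 10 family genes, each as up. The log2 fold changes in the authors' deposited table were 6.02 for Il12b (p = 0.0395), 4.92 for Il27 (p = 0.0073), 2.81 for Lif (p = 0.0362) and 2.31 for Ebi3 (p = 0.0347). Il6, Il12a, Il23a, Osm, Il6ra and Il6st are not on that list.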

How the data were processed

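Total RNA of 4 mouse samples, 2 per group, was sequenced by Ion Torrent after ribosomal depletion, per the labels' protocols and series design. The authors deposited raw counts of reads per gene, per the file headers; the submitters' processing notes name mm10 and DESeq2 (version 1.62) without a role. Neither aligner nor counter is given in those sources. The listed length equals the genomic span for all 38087 genes, so intronic reads may be counted. A second deposited table holds, judging from its values, log2 levels centred on each gene's median, and the authors' comparison table gives log2 fold changes and unadjusted p-values, per the file headers. Another 8 columns of per-library values were not used.

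The main test was the quasi-likelihood test of edgeR 4.0.16 under R 4.3.3 (TMM factors, filterByExpr at 10 reads per library and 15 in total; limma 3.58.1 and DESeq2 1.42.0 as alternatives), with Benjamini-Hochberg adjustment over all genes tested and a threshold of 0.05. Each SE was derived from the log2 fold change and its F. The replicates of each group differed beyond counting noise (chi-square per degree of freedom 767 in WT and 12.1 in KO), so each library counted as 1 sample. Counts were also simulated with 1 spread per gene shared by both groups, and there the fit missed most of the differences put in. The real WT pair differed more than the KO pair, so these shares may not hold for the real data. None of the 67 genes altered 2-fold was called (0 of 67). At 4-fold the fit found 1 of 67, and at 16-fold it found 22 of 66. False calls numbered 6 over 20695 genes, beside the 1 and 22 true calls above, so a called gene may also not differ. A gene that was not called may therefore still differ between the groups. Alternatives were other scalings, filters and tools, a replicate block and each library left out. The named genes are all 10 members, Becn1, up to 3 genes per pathway list with the smallest p, and the 3 genes nearest in pattern to Il6 and to Il27; other names were chosen after their values were seen. The members and lists were chosen with earlier results of these data known. All 151 list genes were matched, 3 of them by Ensembl ID; some other genes of these pathways are not reported here.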

Additional observations from a re-analysis of the deposited data

How the results depend on the processing

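The count of genes past the threshold was 667 with all 4 libraries and edgeR, of which 1 was a family gene. With library totals as the scale it was 0 over all genes and 0 in the family, with 1482 genes higher and 1509 lower at an unadjusted p under 0.05. This scaling moved the median log2 fold change of all genes by 0.593. Without the count filter the counts were 1730 over all genes and 2 in the family, and with DESeq2 they were 3659 and 4. The fit with the replicate block gave 0 and 0, with 1866 genes higher and 2734 lower at an unadjusted p under 0.05. Leaving out 1 library at a time gave 0 to 13809 genes and 0 to 9 family genes; the fits without a KO library gave 0, with 732 and 743 genes higher and 1318 and 1342 lower at an unadjusted p under 0.05. In each of these fits the lone sample is assumed to vary like the other group. DESeq2 size factors, the stricter filter (at least 1 CPM in 2 libraries, 20 reads in total) and limma-voom each left 1 family gene called. Across genes, libraries with the same replicate number deviated from their group means with a correlation of −0.108. With 2 libraries per group this rests on 1 difference within each group, so it cannot tell whether the numbers pair samples. The labels do not say. A crossed pairing, chosen after seeing the data, gave 845 genes and 2 family genes. Among fold changes, Il6st (−0.049, and −0.442 without WT replicate 1) turned positive with library totals (0.39), limma-voom (0.044), the replicate block (0.027), the crossed pairing (0.028), without WT replicate 2 (0.49) and without KO replicate 2 (0.015). Becn1 (−0.20) turned with library totals (0.36), and Clcf1 (0.58) turned to −0.249 without WT replicate 1 and was 2.868 without WT replicate 2. The other 8 tested family genes kept a positive value in every alternative run. The cause of these changes was not tested. Depth limits Il23a and Il6, at 1 to 22 reads per library.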

Other observations

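The genes here belong to the pathway lists, lie outside the rule for named genes and were chosen after their values were seen. None passed the threshold in the main edgeR fit. Without the count filter, edgeR called Cxcr3 and Pim1 higher (1.75% of all genes were). DESeq2 called Socs1, Cxcr3 and Pim1 higher (5.67% of all genes), and limma-voom called Pim1 (1.21%). Socs1, an inhibitor of interferon and cytokine signalling, counted 3 and 239 reads in WT against 1721 and 1906 in KO (adjusted p = 0.202 by edgeR with both WT libraries). Cxcr3, a chemokine receptor of type 1 T cells, counted 22 and 224 reads in WT against 1466 and 1845 in KO (adjusted p = 0.0880). Il27ra, the binding chain of the IL-27 receptor, counted 17 and 1415 reads in WT against 1003 and 1458 in KO, so that its level in WT replicate 2 was close to that in KO while its ligand chain Il27 was not. Pim1, a STAT-induced kinase, counted 103 and 458 reads in WT against 2132 and 2756 in KO (adjusted p = 0.0530), and overlaps AC163629.2.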
